A study of Mus musculus with 79 samples.

Results

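The 10 genes described here are the BDNF, TrkB and mTOR plasticity genes Bdnf, Ntrk2, Vgf, Mtor, Eef2k, Eef2, Homer1, Dlg4, Syn1 and Nptx2, chosen by symbol out of 55471 genes counted. Each symbol was matched to its Ensembl identifier in the count table, and all 10 were found and passed the filter on low counts in both regions. Bulk RNA-seq was measured in the medial prefrontal cortex (mPFC) and the ventral hippocampus (vHipp) of 40 male wild-type CD-1 mice in 79 libraries. Mice were non-stressed controls (CTRL) or went through chronic social defeat stress (CSDS), repeated defeat by an aggressive mouse, and each then received 1 injection of saline or of ketamine, an antagonist of the NMDA receptor. The tissue was punched from the brain a week after that injection, so acute effects of the drug were not sampled. Each of the 4 groups had 10 libraries per region, except CSDS with ketamine in the mPFC, which had 9.

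BDNF is a secreted growth factor that binds the receptor TrkB, the product of Ntrk2, and so drives the PI3K and MAPK pathways and the kinase mTOR, which raises protein synthesis at synapses. The kinase encoded by Eef2k phosphorylates elongation factor 2, the product of Eef2, and thereby slows the elongation step of translation. In rodents, this pathway is known as a target of rapid-acting antidepressants such as ketamine. Vgf and Nptx2 encode secreted proteins whose transcription follows neuronal activity, Homer1 and Dlg4 (PSD-95) encode postsynaptic scaffolds, and Syn1 encodes synapsin I of the presynaptic vesicle.

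Transcription of several such genes is known to respond to the factor CREB, so the start sites were searched for its site TGACGTCA and for the shorter TGACG, which lies within it, on both strands. Promoter windows from RefSeq (GRCm38.p6, 300 bases around each start) matched 8 of the 10 genes with 19 windows, and none was given for Vgf or Nptx2. TGACGTCA was in 2 of the 19 windows, those of Syn1 and Eef2, against 1.79% of all 32851 windows. TGACG was in 6 of the 19 windows, against 20.8% of all windows. Bdnf has 7 windows along chromosome 2, and only the third in order holds TGACG. The 200 bases before the start are shown for 4 genes that hold TGACG, because they stand for a growth factor, both sides of the synapse and the translation machinery, with each match on either strand in capitals.
Bdnf, chr2:109692236-109692435, plus strand: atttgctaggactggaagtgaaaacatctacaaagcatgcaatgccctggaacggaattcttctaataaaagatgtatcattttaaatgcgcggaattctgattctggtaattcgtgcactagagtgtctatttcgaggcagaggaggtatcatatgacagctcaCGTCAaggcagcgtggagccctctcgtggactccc
Homer1, chr13:93303557-93303756, plus strand: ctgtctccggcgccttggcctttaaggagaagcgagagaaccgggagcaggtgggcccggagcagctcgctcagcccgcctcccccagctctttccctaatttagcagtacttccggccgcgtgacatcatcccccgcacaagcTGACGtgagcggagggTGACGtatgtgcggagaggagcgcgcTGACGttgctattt
Syn1, chrX:20920919-20921118, minus strand: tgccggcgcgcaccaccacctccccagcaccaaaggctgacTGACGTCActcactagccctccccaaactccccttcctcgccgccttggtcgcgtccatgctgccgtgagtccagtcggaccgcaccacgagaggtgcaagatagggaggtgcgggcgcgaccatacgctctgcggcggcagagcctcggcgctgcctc
Eef2, chr10:81176431-81176630, plus strand: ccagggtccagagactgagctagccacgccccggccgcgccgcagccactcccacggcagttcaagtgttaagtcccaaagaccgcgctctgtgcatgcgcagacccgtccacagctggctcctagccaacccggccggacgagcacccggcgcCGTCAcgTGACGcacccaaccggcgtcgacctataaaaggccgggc
The stretches of Homer1, Syn1 and Eef2 hold 3, 2 and 2 matches of TGACG, where the palindromic TGACGTCA of Syn1 counts once per strand, and that of Bdnf holds 1. The TGACGTCA of Eef2 lies just after the start, outside the stretch shown. A match is a description of letters only, and binding was not measured. The activity-regulated factor EGR's site GCGGGGGCG was in 1 of the 19 windows (Eef2k), against 2.91% of all windows, and CACGTG was in 2 (Eef2k and Eef2), against 7.15%.

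Libraries held 11726129 to 41767119 counts (median 19638060), and Bdnf had at least 200 counts in each, with only Nptx2 lower among the members. The region labels were checked against markers: all 6 cortical layer genes were higher in the mPFC, and all 4 dentate gyrus genes and 5 of 7 CA genes were higher in the vHipp (edgeR quasi-likelihood test, adjusted p under 0.05). Of the CA list, Wfs1 was higher in the mPFC (log2 difference 1.45, adjusted p = 1.7e-16), and the summed list had medians of 209 CPM in cortex and 198 CPM in hippocampus. One vHipp library stood apart, that of mouse 11 (CSDS, ketamine). Its summed markers were 3043 CPM (counts scaled to the same library total) for astrocytes against a vHipp median of 1180, and 437 CPM for microglia against 166, both the highest of the 40 libraries. One other vHipp library, of a CSDS saline mouse, held 686 CPM of choroid plexus markers against a median of 21.7.

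The clearest pattern was regional. Bdnf was higher in the vHipp, whereas Nptx2, Ntrk2, Homer1, Eef2k and Vgf were higher in the mPFC (edgeR quasi-likelihood test over the 4 groups with equal weight, adjusted p under 0.05). These 6 calls stand beside 24.5% of 31534 genes called higher in the mPFC and 24.4% called higher in the vHipp, so a call between regions was common among all genes. The regional differences of all 10 genes are drawn in the plot of log2 differences.

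**Figure D1:**
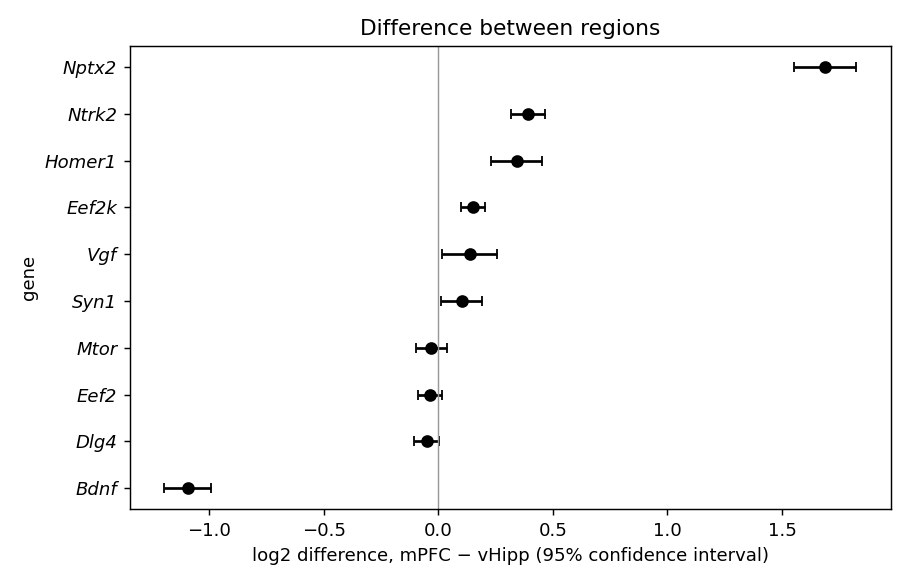
The x axis gives the log2 difference of each gene (y axis) between mPFC and vHipp, with points for the estimate and bars for the 95% confidence interval. Bdnf lies at -1.09 and Nptx2 at 1.69, and the other 8 genes lie between -0.05 and 0.39.

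Bdnf, the ligand of TrkB (ENSMUSG00000048482, chromosome 2, 109674700 to 109727007, plus strand, GRCm38), ranged from 15.0 to 24.4 CPM in the 39 mPFC libraries, with a median of 20.0. In the 40 vHipp libraries it ranged from 26.2 to 60.3 CPM, with a median of 43.1, so the regions did not overlap. Bdnf was 2.13-fold higher in the vHipp (log2 difference, mPFC minus vHipp, -1.09, SE 0.05, adjusted p = 1.7e-32). It was higher in the vHipp of 39 of the 39 mice with both regions, by 1.08-fold to 2.94-fold. The counts are of the whole gene, so its several start sites, including the one shown above, cannot be told apart.

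Nptx2 (neuronal pentraxin 2, which clusters AMPA receptors at excitatory synapses on interneurons) had the opposite pattern. It ranged from 29.0 to 58.1 CPM in the mPFC (median 39.7) and from 7.12 to 19.8 CPM in the vHipp (median 12.4). The ranges did not overlap, and all 39 mice had more Nptx2 in the mPFC. The fold was 3.22 (log2 difference 1.69, SE 0.07, adjusted p = 3.3e-37). Vgf, the other activity-regulated secreted protein, ranged from 130.4 to 271 CPM in the mPFC and from 77.8 to 231 CPM in the vHipp. The Vgf ranges overlapped widely, 26 of 39 mice had more in the mPFC, and the log2 difference was 0.14 (SE 0.06, adjusted p = 0.0498), a call lost with upper-quartile factors (adjusted p = 0.0547).

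Ntrk2, the receptor, ranged from 588 to 886 CPM in the mPFC (median 764) and from 416 to 985 CPM in the vHipp (median 570). The highest vHipp value was that of mouse 11, and the next in its group was 651 CPM. Ntrk2 was higher in the mPFC in 37 of 39 mice, 1.31-fold in the fit (log2 difference 0.39, SE 0.04, adjusted p = 2.7e-15). Full-length and truncated TrkB are counted together here.

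Homer1, a scaffold that links metabotropic glutamate receptors to the postsynaptic density, ranged from 95.2 to 174 CPM in the mPFC and from 61.7 to 153.4 CPM in the vHipp. It was higher in the mPFC of 35 of 39 mice (log2 difference 0.34, SE 0.06, adjusted p = 1.8e-07), and the short activity-induced form was not counted apart from the long forms. Eef2k ranged from 43.3 to 59.1 CPM in the mPFC and from 39.1 to 54.0 CPM in the vHipp. Eef2k was higher in the mPFC of 37 of 39 mice by a small amount (log2 difference 0.15, SE 0.03, adjusted p = 6.9e-07). In the saline-treated CTRL mice alone, Eef2k (0.13, adjusted p = 0.055) and Vgf (0.13, adjusted p = 0.39) did not pass, while Ntrk2 (0.50), Homer1 (0.29), Nptx2 and Bdnf did, in a fit with fewer mice.

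The other 4 genes did not pass the threshold between regions. The log2 differences were -0.03 for Mtor (SE 0.03, adjusted p = 0.50), -0.04 for Eef2 (SE 0.03, adjusted p = 0.26), -0.05 for Dlg4 (SE 0.03, adjusted p = 0.11) and 0.10 for Syn1 (SE 0.04, adjusted p = 0.053). Their 95% intervals ended at -0.10 and 0.19 at the widest. With the mouse as a block, Dlg4 (log2 difference -0.06, adjusted p = 0.043) and Syn1 (0.12, adjusted p = 0.015) passed the threshold.

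Per kilobase of the counted exons, the members covered a wide range of levels. In the mPFC, the median was 297 CPM per kb for Eef2 and 241 for Syn1, then 63.1 for Vgf, 62.3 for Dlg4 and 39.6 for Ntrk2. It was 15.7 for Nptx2, 15.6 for Mtor, 10.7 for Homer1, 6.98 for Eef2k and 3.22 for Bdnf. In the vHipp, Bdnf (6.94 CPM per kb) was above Eef2k (6.22) and Nptx2 was the lowest (4.87). The pairs Vgf and Dlg4, and Nptx2 and Mtor, differed by less than the spread between mPFC libraries.

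**Figure D2:**
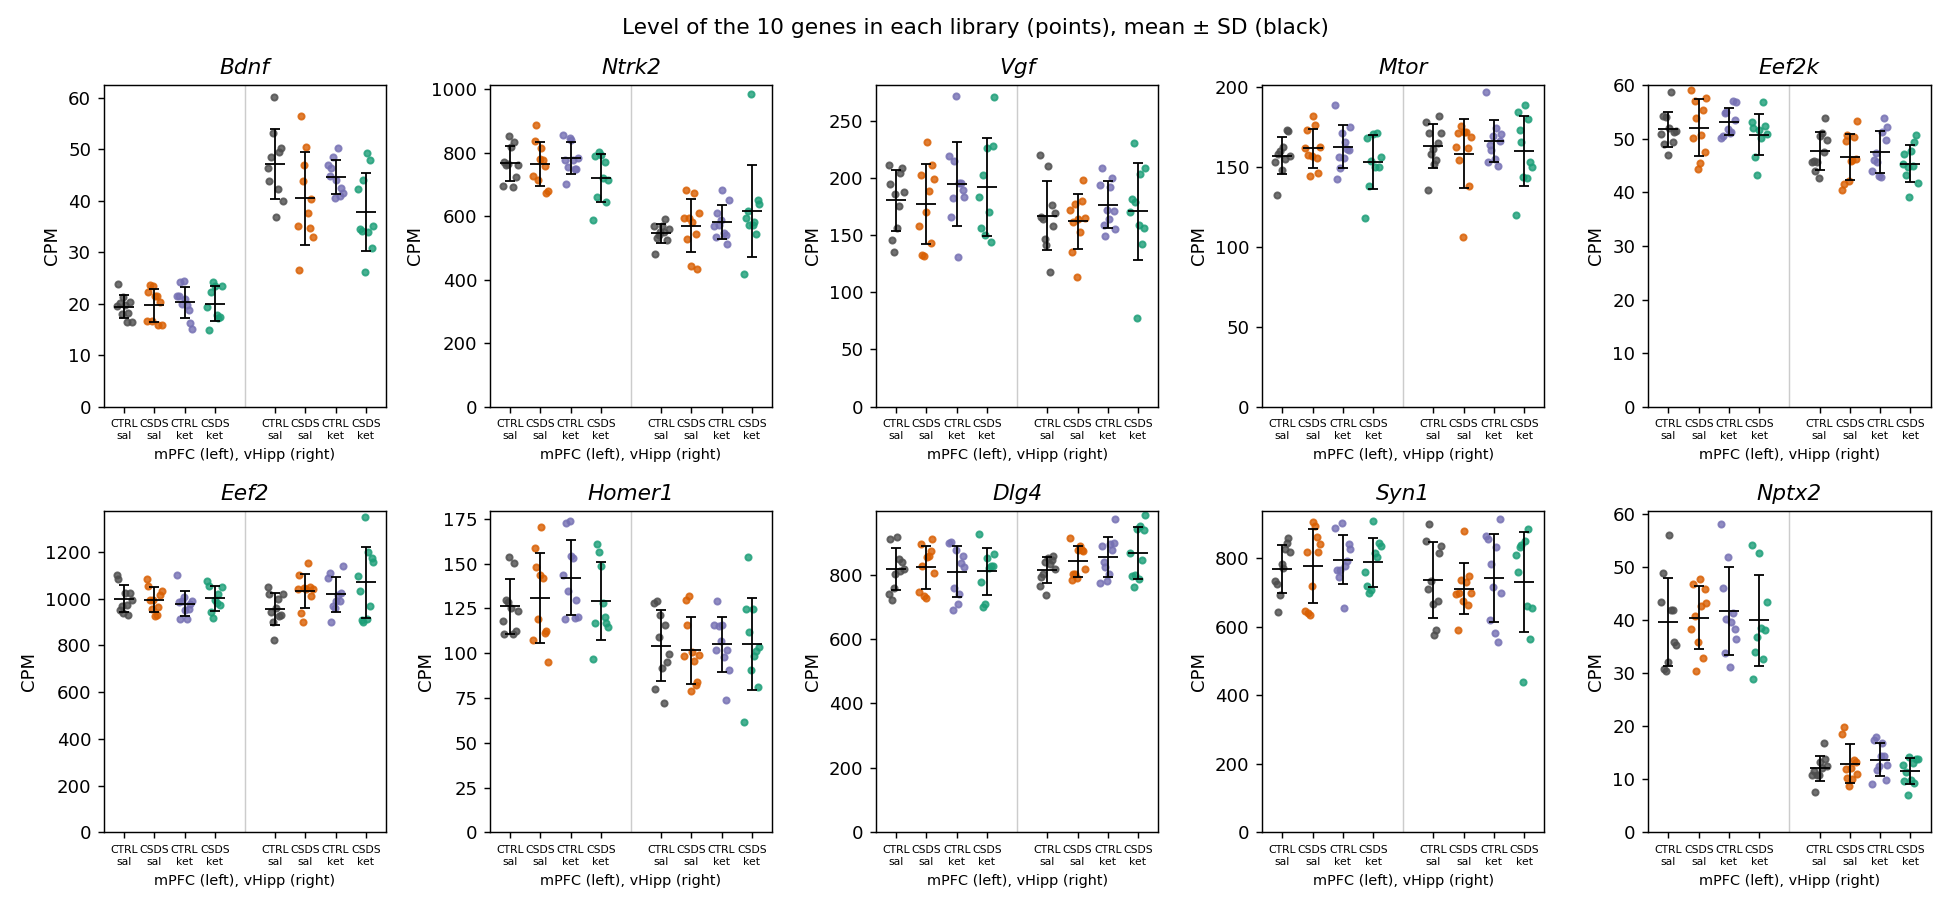
Each panel gives 1 gene, with CPM on the y axis from 0 and the 4 groups of the mPFC (left) and vHipp (right) on the x axis, a point per library and the mean ± SD in black. Bdnf and Nptx2 separate the regions in opposite directions, and the 4 groups of a region overlap for every gene.

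The design then asked whether stress and ketamine shifted these genes within a region. No member passed the adjusted threshold in any of the 7 comparisons in either region, with smallest adjusted p-values of 0.83 (mPFC) and 0.37 (vHipp) (edgeR quasi-likelihood test). The share of all genes past that threshold was likewise 0% in each of the 14 comparisons, over 28993 mPFC and 28991 vHipp genes. Social rank was not in the labels, so each group pools dominant and subordinate mice, which the study tested apart. At an unadjusted p under 0.05, the share of all genes in the mPFC was 2.94% for stress with saline, 5.8% for stress with ketamine, 3.64% for ketamine in CTRL, 4.32% for ketamine in CSDS, 5.31% for the interaction, 3.52% for stress averaged over treatments and 3.07% for ketamine averaged over stress. In the vHipp, it was 5.57%, 5.42%, 2.88%, 2.9%, 2.84%, 9.71% and 3.39% in the same order. An unadjusted p under 0.05 was reached by 1 of the 70 member results of the mPFC and by 3 of the 70 of the vHipp. The stress and ketamine comparisons share groups, so their results are not independent. In the study, whole social boxes of mice were stressed or not, so stress differed only between boxes. The box was not in the labels, and the stress tests and intervals treat mice of a box as independent.

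The data bounded these differences, with each mouse treated as independent. Leaving out the interaction, the 95% interval lay within 0.5 log2 units of 0 in 60 of 60 mPFC member results and 59 of 60 vHipp ones. The exception was Nptx2 in the vHipp for stress with ketamine (log2 difference -0.24, interval -0.53 to 0.04). Within the mPFC, the narrowest limits were those of Eef2, where the bounds over all 6 comparisons were -0.11 and 0.12, and of Dlg4, at -0.13 and 0.13. For Mtor they were -0.19 and 0.16 (mPFC), and -0.19 and 0.17 (vHipp).

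**Figure D3:**
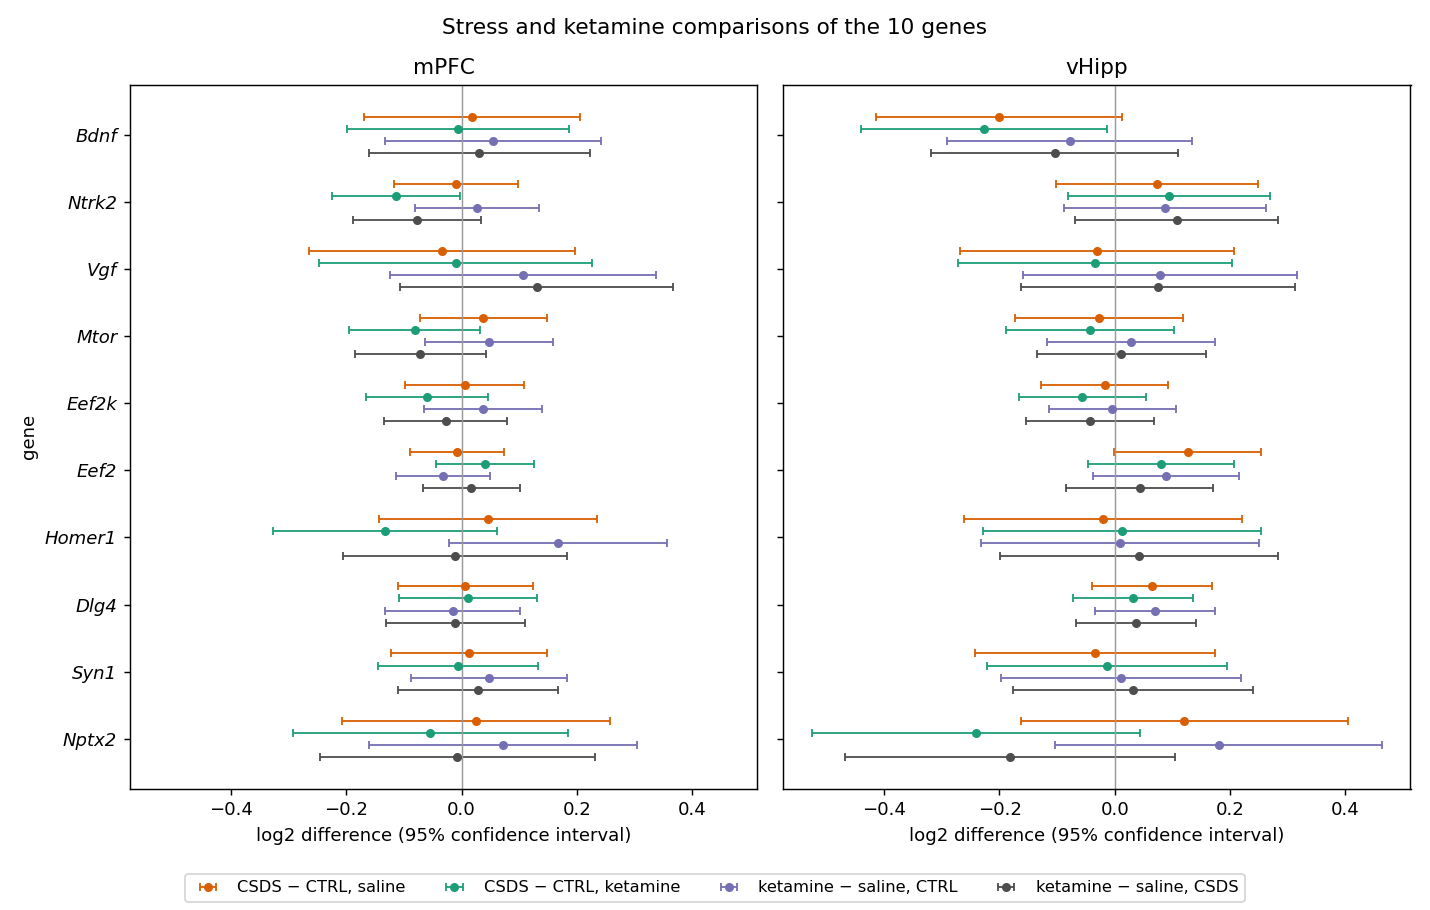
The x axis gives the log2 difference of each gene (y axis) in 4 comparisons, mPFC left and vHipp right, with points for estimates and bars for 95% confidence intervals. All bars cross 0 except those of Ntrk2 in the mPFC and Bdnf in the vHipp for stress with ketamine, at -0.11 and -0.23.

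Bdnf in the vHipp had the smallest unadjusted p of the members. In CTRL mice given saline it ran from 36.9 to 60.3 CPM (median 47.5), and in CSDS mice given saline from 26.6 to 56.4 CPM (median 39.0). With ketamine it ran from 40.6 to 50.2 CPM in CTRL (median 44.4) and from 26.2 to 49.3 CPM in CSDS (median 34.7). The medians were thus lower in CSDS under both treatments, while the groups overlapped. The log2 difference between CSDS and CTRL was of like size under both treatments, -0.20 with saline (SE 0.11, unadjusted p = 0.065, adjusted p = 0.89) and -0.23 with ketamine (SE 0.11, unadjusted p = 0.038, adjusted p = 0.90). Without the library of mouse 11, it was -0.20 with saline (unadjusted p = 0.049, adjusted p = 0.78) and -0.18 with ketamine (unadjusted p = 0.089, adjusted p = 0.98). Averaged over treatments, the log2 difference was -0.21 (SE 0.075, interval -0.36 to -0.06, unadjusted p = 0.0066), and its adjusted p was 0.37, so it did not pass. In the mPFC the same average was 0.01 (SE 0.07, interval -0.13 to 0.14). Whether the stress difference itself differed between regions was not tested.

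Markers of other cells were set beside these Bdnf values, and none passed the adjusted threshold for averaged stress in the vHipp. The summed level of the 4 dentate gyrus markers had medians of 505 and 429 CPM in CTRL mice given saline and ketamine, and of 322 and 286 CPM in CSDS mice. Its range was 229 to 663 CPM over CTRL libraries and 125.8 to 542 CPM over CSDS libraries. An unadjusted p under 0.05, which 9.71% of all genes had in this comparison, was reached on the lower side by 3 of the 4 dentate markers, C1ql2 (log2 difference -0.48, adjusted p = 0.33), Prox1 (-0.43, adjusted p = 0.37) and Calb2 (-0.85, adjusted p = 0.41). On the higher side it was reached by 4 of 4 microglia, 4 of 5 astrocyte and 3 of 4 endothelial markers, with adjusted p of at least 0.32, and also by 2 of 6 inhibitory neuron, 2 of 5 striatal, 2 of 7 CA (Fibcd1 and Spink8), 1 of 4 choroid plexus (Ttr), 1 of 2 oligodendrocyte precursor and 1 of 6 cortical layer markers. In those lists 1 CA marker, Trhr (-0.55, adjusted p = 0.47), and 1 cortical layer marker, Foxp2 (-0.61, adjusted p = 0.44), were on the lower side, and the median log2 difference was 0.09 over the CA list and -0.01 over the cortical layer list. The CA sum had medians of 173 CPM in CTRL and 206 CPM in CSDS with saline, and of 193 and 244 CPM with ketamine. Without the library of mouse 11 the microglia, astrocyte and endothelial counts were 3 of 4, 2 of 5 and 2 of 4, beside 8.52% of all genes, and 3 of 4 dentate markers were still on the lower side.

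By treatment, medians of the glial sums and tests of the single markers did not run alike. The astrocyte sum had medians of 1120 CPM in CTRL and 1239 CPM in CSDS with saline, and of 1185 and 1049.5 CPM with ketamine. The microglia sum had 158 and 175 CPM with saline, and 167 and 166 CPM with ketamine. At an unadjusted p under 0.05, 1 of 4 microglia and 0 of 5 astrocyte markers were higher in CSDS with saline, beside 5.57% of all genes, and 4 of 4 and 2 of 5 with ketamine, beside 5.42%. Without mouse 11, they were 3 of 4 and 3 of 5 with saline, beside 6.35% of all genes, and 0 of 4 and 0 of 5 with ketamine, beside 4.14%. Without mouse 11, the CSDS ketamine medians were 1020.65 CPM for astrocytes, 160.4 CPM for microglia and 304 CPM for the dentate markers. No marker of these lists was at 0. The part of these markers in the Bdnf values was not tested. In bulk tissue, fewer cells of a type and less RNA per cell cannot be told apart. Without mouse 11 the averaged Bdnf difference was -0.19 (SE 0.071, adjusted p = 0.50), and over all mice left out in turn it ran from -0.24 to -0.18.

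**Figure D4:**
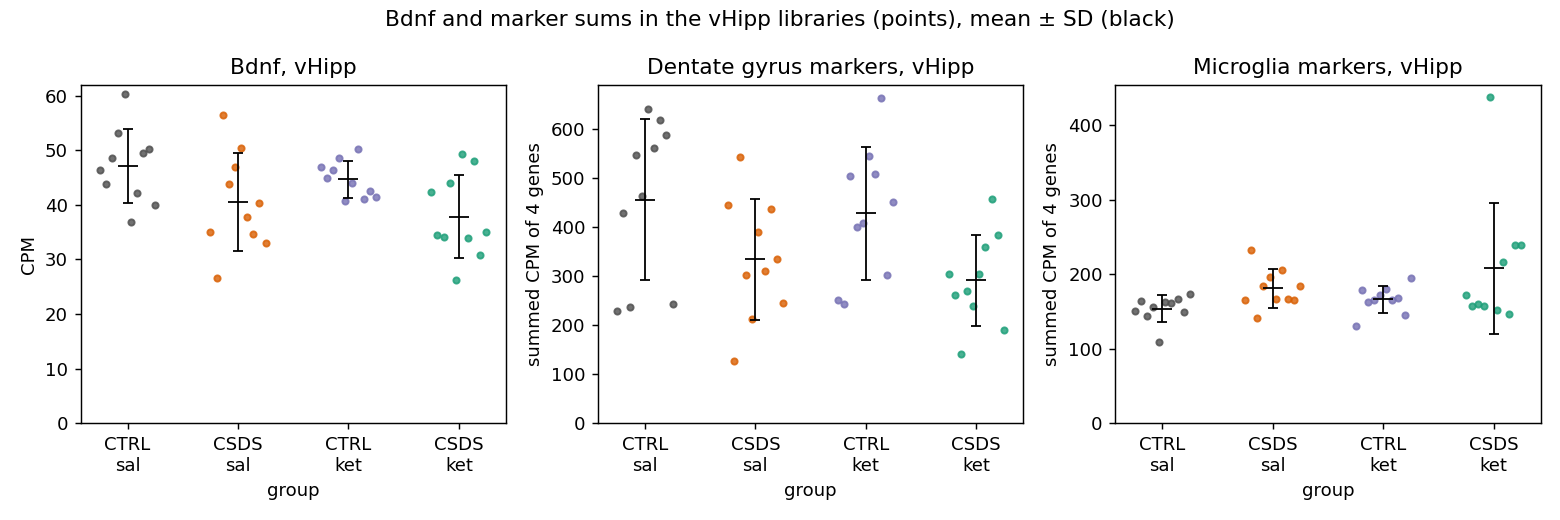
The 3 panels give, for the 4 vHipp groups on the x axis, Bdnf in CPM and the summed CPM of 4 dentate gyrus and 4 microglia markers on the y axis, a point per library with the mean ± SD in black. Bdnf and the dentate sum have lower medians in both CSDS groups, with overlap, and 1 CSDS ketamine library holds 437 CPM of microglia markers.

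Eef2 in the vHipp had medians of 950 CPM in CTRL saline, 1042.3 CPM in CSDS saline, 1002.5 CPM in CTRL ketamine and 1064.5 CPM in CSDS ketamine. The averaged stress difference was 0.10 (SE 0.045, interval 0.01 to 0.19, unadjusted p = 0.025), with an adjusted p of 0.44. The highest Eef2 value, 1350 CPM, was again the library of mouse 11. Without that library the averaged stress difference was 0.086 (edgeR quasi-likelihood test, unadjusted p = 0.046, adjusted p = 0.58). In the mPFC, Ntrk2 had medians of 776 CPM in CTRL and 720 CPM in CSDS mice given ketamine, with ranges of 701 to 855 and 588 to 803 CPM. Its log2 difference was -0.11 (SE 0.055, interval -0.22 to -0.0030), with an adjusted p of 0.83. Leaving out single mice moved this value between -0.14 and -0.09.

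No member passed the threshold for ketamine, within the intervals given above. The member with the smallest p for ketamine was Homer1 in the mPFC of CTRL mice, with a median of 139.1 CPM against 124.2 CPM with saline (log2 difference 0.17, SE 0.094, interval -0.02 to 0.36, adjusted p = 0.997). Bdnf with ketamine differed by 0.05 in CTRL (interval -0.13 to 0.24) and by 0.03 in CSDS (interval -0.16 to 0.22) in the mPFC. In the vHipp it differed by -0.08 in CTRL (interval -0.29 to 0.13) and by -0.10 in CSDS (interval -0.32 to 0.11). For the interaction of stress and ketamine, Nptx2 in the vHipp had the smallest p (log2 difference -0.36, SE 0.20, interval -0.76 to 0.04, adjusted p = 1.0).

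The group medians of the remaining genes lay close together. In the vHipp, Ntrk2 had medians of 550 CPM in CTRL saline, 589 CPM in CSDS saline, 570.1 CPM in CTRL ketamine and 587 CPM in CSDS ketamine. In the same order, Mtor had 163, 166, 165 and 159 CPM, and Eef2k 46.7, 46.2, 46.6 and 45.1 CPM. Both are kinases that act on translation, and the 4 groups of each overlapped. Of the synaptic genes in the vHipp, Dlg4 had 825, 844, 858 and 858 CPM, and Syn1 had 722, 699, 751 and 786 CPM. In the mPFC, Vgf had 187, 179, 193 and 183 CPM in that order, and Nptx2 had 38.9, 41.7, 40.0 and 38.2 CPM. The coefficients of variation over the mPFC were largest for Vgf (18.8%) and Nptx2 (18.7%) and smallest for Eef2 (5.32%). Over the vHipp, they were 23.4% for Nptx2, 18.7% for Homer1, 18.0% for Bdnf, 17.6% for Vgf and 7.23% for Dlg4, the smallest.

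The rest of the pathway was read from 164 genes in 9 roles, members included, all of which were tested. For stress averaged over treatments in the vHipp, 9 were higher and 10 lower at an unadjusted p under 0.05, a share near the 9.71% of all genes, with a median log2 difference of -0.015 against -0.0026 for all genes tested. Among the ligands and their processing, Ntf3, a neurotrophin that prefers TrkC, had a log2 difference of -0.29 (SE 0.13, adjusted p = 0.44). Among the receptors it was -0.12 for Ntrk3 (TrkC, SE 0.06, adjusted p = 0.46). Of TrkB signalling, Pik3cb, a catalytic PI3K subunit, had -0.13 (SE 0.04, adjusted p = 0.37) and the kinase Camk2a 0.18 (SE 0.07, adjusted p = 0.40). In the postsynaptic scaffold, Homer2 had 0.41 (SE 0.13) and Dlgap3 0.19 (SE 0.06), both with an adjusted p of 0.34. Of the presynaptic genes, Syn3 had -0.29 (SE 0.12) and Unc13a, a vesicle priming factor, -0.10 (SE 0.05), with adjusted p of 0.43 and 0.48. Of the secreted proteins, Scg2 (secretogranin II) had -0.23 (SE 0.08, adjusted p = 0.35) and Scg3 had 0.20 (SE 0.07, adjusted p = 0.36). Of the activity-regulated early genes, 1 was higher and 2 were lower at that level, with Arc at 0.25 (SE 0.08, adjusted p = 0.34) and Btg2 at -0.22 (SE 0.09, adjusted p = 0.41).

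In the mPFC, stress with ketamine had 3 higher and 10 lower of 164 at that level, in the comparison that also had the largest share of all genes there, 5.8%. Syn3 (synapsin III) had a log2 difference of -0.26 (SE 0.08), Shc3, an adaptor of Trk receptors, -0.31 (SE 0.12), and Ntrk3 -0.16 (SE 0.06), each with an adjusted p of 0.83. Rictor, which defines mTOR complex 2, had -0.18 (SE 0.07), and Akt1s1 (PRAS40), an inhibitor within mTOR complex 1, 0.14 (SE 0.05). For ketamine averaged over stress in the mPFC, 4 were higher and 2 lower, beside 3.07% of all genes. Among the higher were the early genes Egr1 (0.25, SE 0.11) and Egr4 (0.17, SE 0.08) and, of translation control, Eif4ebp3 (0.31, SE 0.15). The lower were the mTOR brake Ddit4 (-0.13, SE 0.06) and, of the same role, Rragd (-0.11, SE 0.05). The adjusted p of each rounded to 1.0.

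Between regions, 63 of the 164 genes were higher in cortex and 65 in hippocampus at the adjusted threshold, beside 24.5% and 24.4% of all genes. Of the early genes, 13 of 17 were higher in the mPFC and 3 in the vHipp, and their median log2 difference was 0.64 against -0.0020 for all genes tested. Of the 26 mTOR complex genes and regulators, 7 were higher in cortex and 11 in hippocampus, with Deptor, an mTOR inhibitor, at 2.29 (SE 0.08). Of the 18 genes of translation control, 4 were higher in cortex and 10 in hippocampus, with Eif4ebp1, the repressor of cap-dependent initiation, at 1.79 (SE 0.09). Nptx1 lay at -1.42 (SE 0.07), the direction opposite to that of its relative Nptx2.

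Variation between mice of the same group was then compared. After group means were subtracted, 3 of 10 members correlated between the mPFC and vHipp of the same mouse over 39 mice (100000 permutations within groups, two-sided, adjusted over the 10 members). Such an r was common: a value at least as large as the smallest of these 3 was found in 22.3% of 15188 genes with a mean of at least 1 CPM in both regions, and the median r was 0.21 over the members and 0.29 over those genes. Mtor had r = 0.63 and rho = 0.58 (adjusted permutation p = 9.0e-04 and 0.0030), and r was 0.50 without the 2 mice farthest from the mPFC median. Eef2k had r = 0.53 and rho = 0.53 (adjusted permutation p = 0.0060 and 0.0047), with 0.43 without 2 mice. Homer1 had r = 0.50 and rho = 0.51 (adjusted permutation p = 0.0061 and 0.0047), with 0.55 without 2 mice. For Bdnf, r was 0.22 and rho 0.27 (adjusted permutation p = 0.36 and 0.29), so no relation was detected over these mice. The same 3 genes passed without the vHipp library of mouse 11, with r of 0.64, 0.47 and 0.53. Both libraries of a mouse also share its handling and dissection.

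Within a region, 14 of the 45 member pairs correlated in cortex (mPFC) and 11 of 45 in hippocampus (vHipp) (permutation p adjusted over 90 pairs). Pairs were often correlated among all genes with a mean of at least 1 CPM: an absolute r at least as large as that of the weakest of these member pairs was found in 13.3% of all pairs in the mPFC and 15.2% in the vHipp. Of these, 7.24% were positive and 6.07% negative in cortex, and 8.6% and 6.6% in hippocampus, as shares of all pairs. For pairs, the 2 mice left out are those farthest from the median of the first-named gene in that region. In the mPFC, 11 of the 14 were positive, led by Dlg4 with Nptx2 (r = 0.70, rho = 0.71, r = 0.69 without 2 mice) and Vgf with Syn1 (r = 0.69, rho = 0.68, 0.66 without 2 mice). Their adjusted permutation p was 3.0e-04, from a raw p of 1e-05, the smallest that the permutations can give. Bdnf went with Homer1 (r = 0.60, rho = 0.60, 0.59 without 2 mice, adjusted permutation p = 0.0028) and against Eef2k (r = -0.54, rho = -0.52, -0.53 without 2 mice, adjusted permutation p = 0.0074).

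In the vHipp, 7 of the 11 pairs were negative. Bdnf went against Eef2 (r = -0.60, rho = -0.53, -0.60 without 2 mice, adjusted permutation p = 0.0028) and with Syn1 (r = 0.55, rho = 0.51, 0.58 without 2 mice, adjusted permutation p = 0.0022). Mtor went with Homer1 (r = 0.63, rho = 0.57, 0.54 without 2 mice, adjusted permutation p = 4.5e-04). Without the library of mouse 11, 10 vHipp pairs passed, of which 8 were among these 11 and the rest were new. Bdnf with Ntrk2 (r = -0.52, then -0.41), Bdnf with Nptx2 (-0.43, then -0.40) and Ntrk2 with Syn1 (-0.54, then -0.34) no longer passed (adjusted permutation p = 0.086, 0.063 and 0.086). The libraries also share depth and the makeup of the punch: summed oligodendrocyte markers ran from 500.2 to 5312 CPM in the mPFC, and summed excitatory neuron markers from 1297 to 2851 CPM in the vHipp. The part of this makeup in the correlations was not tested.

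**Figure D5:**
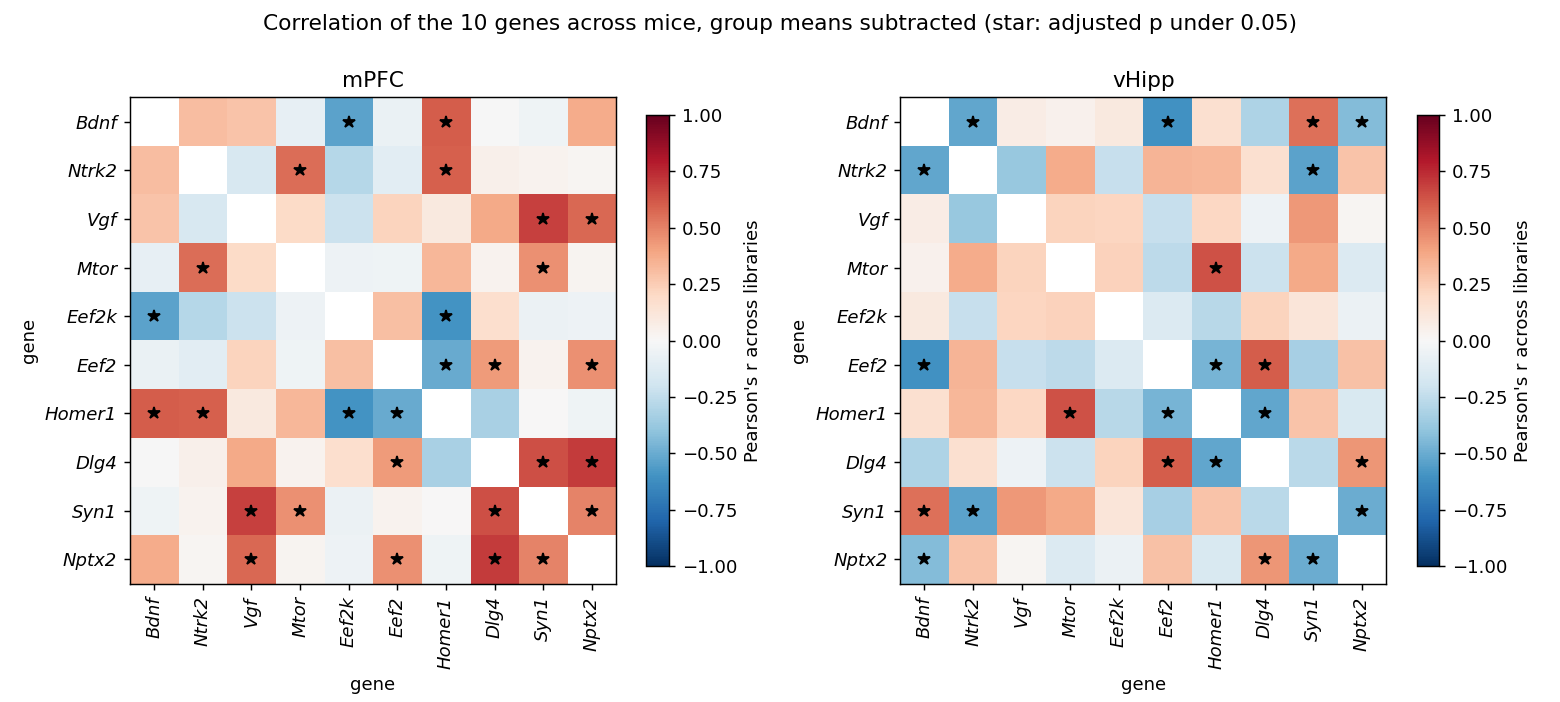
Both axes list the 10 genes, mPFC left and vHipp right, and colour gives Pearson's r across libraries after subtracting group means, with a star where the adjusted permutation p is under 0.05. The starred pairs are mostly positive in the mPFC (11 of 14), and 7 of 11 are negative in the vHipp. Of the negative vHipp pairs, Bdnf with Ntrk2, Bdnf with Nptx2 and Ntrk2 with Syn1 did not pass without the library of mouse 11.

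As a description, the genes whose deviations were most like each member were listed among genes with a mean of at least 1 CPM. In the vHipp, the nearest gene was Lgi1 for Bdnf (r = 0.89), Cttnbp2nl for Ntrk2 (0.91), Rap1gap for Vgf (0.82), Cmip for Mtor (0.96), Mark2 for Eef2k (0.74), Btbd17 for Eef2 (0.87), Ppm1e for Homer1 (0.92), Palm for Dlg4 (0.83), Dnm1 for Syn1 (0.98) and Cotl1 for Nptx2 (0.71), over 40 libraries. In the mPFC, it was Gm29170 for Bdnf (0.63), Shc3 for Ntrk2 (0.88), Ppme1 for Vgf (0.84), Acaca for Mtor (0.91), Safb for Eef2k (0.74), Aldoc for Eef2 (0.80), Rgs7bp for Homer1 (0.88), Epn1 for Dlg4 (0.90), Atp6v0a1 for Syn1 (0.94) and 4932441J04Rik for Nptx2 (0.75), over 39 libraries. Prpf8 was among the 3 nearest genes of Mtor, and Atp6v0a1 among those of Syn1, in both regions.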

How the data were processed

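The authors deposited a table of raw counts per gene for 79 libraries, with exon coordinates and a length for each gene. Libraries came from a stranded mRNA kit, and the processing notes name bcl2fastq 2.20.0.422 and the build GRCm38. The aligner, the counting program and its strand setting are not given in the sources used here. Groups came from the sample titles. The members and lists were chosen with earlier results of these data known.

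Genes with a total count above 10 and detected in more than 3 libraries were kept. Counts were tested with edgeR 4.0.16 (TMM, quasi-likelihood) in R 4.3.3, with the 4 groups of a region in 1 fit and Benjamini-Hochberg adjustment over all genes tested. Regions were compared in 1 fit of all 79 libraries. The social box and rank used by the study were not in the labels, so no such covariate was fitted. Among the alternatives, a run of 4 consecutive mouse numbers stood in for the box. Its correlation in the limma-voom fits was 0.088 in the mPFC and 0.055 in the vHipp. The labels do not say whether these runs match the boxes. Levels are CPM with TMM factors. Per-kb levels divide CPM by the deposited length. Correlations used log2 CPM (prior count 2) and 100000 permutations. Besides the members, the named genes were up to 2 per role and comparison with the smallest unadjusted p under 0.05, given for the comparisons described, and the genes with the highest correlation with each member. Marker genes named singly were chosen after their values were seen. Replicates are separate mice, and mice of a social box are treated as independent. The same mouse number in the labels marks the 2 regions of 1 animal, which gives the mouse block. The edgeR, DESeq2 and limma-voom fits were run on simulated mPFC counts for stress with ketamine, without a simulated run or mouse effect. The region fit, the mouse block, the run as a fixed term and the correlations were not run on simulated data. Alternatives were other normalizations and filters, DESeq2 1.42.0, limma 3.58.1, and leaving out mice.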

Additional observations from a re-analysis of the deposited data

Results flagged for a closer look

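Of 80 sets of libraries (10 genes, 2 regions, 4 groups), 3 held a library whose gap to its nearest neighbour was large for the range of the group by Dixon's criterion, which chance exceeds in about 1 in 20 sets. Ntrk2 reached 985 CPM in the vHipp of mouse 11 (CSDS, ketamine), with the next library at 651 CPM. Mtor reached 197 CPM in the vHipp of mouse 21 (CTRL, ketamine), with the next at 174 CPM. Eef2 reached 1101 CPM in the mPFC of mouse 21, with the next at 1007.3 CPM. No member passed the adjusted threshold for the interaction in either region.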

How the results depend on the processing

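The count of members past the adjusted threshold stayed at 0 in every within-region comparison under all alternatives run, leaving out each mouse included. Of 1000 member values under the other within-region alternatives, 19 changed sign, all of values near 0. They were Dlg4 for the mPFC interaction (-0.0040 with RLE factors, -0.013 with upper-quartile factors, -0.014 without a filter, -0.0040 with filterByExpr, -0.0041 with DESeq2, -0.0013 with limma-voom and the run of consecutive mice as a random effect, which changes method and model together, -0.0076 with the run as a fixed term) and for stress with ketamine (-0.0020 with upper-quartile factors), and Syn1 for averaged stress in the mPFC (-0.0014 with upper-quartile factors, -0.0021 with limma-voom and the run). With the run as a term they were Vgf for the mPFC interaction (-0.012), Homer1 for ketamine in CSDS mPFC (0.00097) and Nptx2 for averaged ketamine in the vHipp (0.014, and 0.00034 with RLE and 0.0019 with DESeq2). Homer1 in the vHipp turned for averaged stress (0.00016 with RLE, 0.0022 with filterByExpr, 0.00027 with DESeq2) and for stress with ketamine (-0.017 with limma-voom and the run). Leaving out 1 mouse changed the sign of 62 of 140 member values, each at most 0.532 standard errors from 0. The number at an unadjusted p under 0.05 then ran from 0 to 2 in the mPFC and from 2 to 5 in the vHipp. Between regions, the mouse as a replicate block gave 2 members higher in the vHipp in place of 1. In this paired fit, Vgf kept its call (adjusted p = 0.013), and Dlg4 and Syn1 gained one. With the saline-treated CTRL groups alone, 3 in place of 5 were higher in the mPFC (Vgf and Eef2k no longer passed), and Dlg4 (0.017) and Eef2 (0.074) changed sign. The correlations and marker counts without the library of mouse 11 were added after its glial markers were seen. The cause of these changes was not tested.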
